A study of Homo sapiens with 6 samples.

Results

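Mitosis and chromosome segregation genes were compared between HepG2 cells given glycine and cells given vehicle. The group comprises 49 genes for mitotic cyclins and kinases, spindle checkpoint proteins, kinesins, kinetochore proteins and condensins, chosen by gene symbol from 57500 genes in the count files. This choice, and that of the other lists below, was made with earlier results of these data known. All 49 passed the filter on low counts, which left 15492 genes for the test. HepG2 is an established human hepatocarcinoma line, and all libraries came from wild-type cells of this single line. The treated group received 10 mM glycine for 24 h and the control group received vehicle for the same time, with 3 libraries in each. The study's text describes its standard medium as already containing some glycine, and the 10 mM as a supplement. The comparison addresses which transcripts respond to added glycine. The study's text describes the libraries of a group as biological replicates, which it defines in general as experiments of separate days; the labels only number the libraries and name no culture or day, and the p-values measure the spread between these libraries.

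CDK1 bound to cyclin B drives a cell into mitosis, and the spindle checkpoint delays anaphase until every kinetochore is attached. CDC20 then activates the anaphase-promoting complex, which destroys cyclin B and securin. Most of the genes described here are transcribed late in the cell cycle, in G2 and M, by FOXM1 and by the MuvB complex with B-MYB. Resting hepatocytes hold little of these RNAs, whereas a dividing liver cancer line makes them in every cycle. In bulk RNA, a larger share of cells in G2 or M and more RNA per dividing cell cannot be told apart.

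Glycine was followed by a small rise across the mitosis genes. The estimated change was above 0 for 49 of 49 genes, with a median of 0.22 on the log2 scale, or a 16.2% increase in level. The range ran from 0.049 for KIF18A to 0.55 for HMMR on the same scale. Among all 15492 tested genes the median log2 change was 0.0035, and 50.8% were above 0. A gene was called when its edgeR quasi-likelihood p, adjusted by the Benjamini-Hochberg method over all tested genes, was under 0.05. The 49 genes held 22 higher calls (44.9%) and 0 lower ones, against 6.71% of all tested genes called higher and 6.54% called lower. The same test at an unadjusted p under 0.05 gave 34 of the 49 genes, all higher, against 14.3% of tested genes higher at that level, and DESeq2 and limma-voom also called 0 of the 49 lower. The levels did not overlap between the groups, with every glycine library above every vehicle library, for 33 genes (67.3%), against 17.2% of all tested genes. The rises were small in size: 5 of the 49 genes rose by over 25% and 0 by 50% or more. The count of calls depended on the libraries kept. It was 7 without glycine replicate 1, 12 without vehicle replicate 1 and 14 without glycine replicate 3, and 0 of the 49 were called lower each time. Among all tested genes the share called higher was also smaller in these fits. It was 3.76%, 3.74% and 3.73% in the same order, against 6.71% with all libraries. How far the fall in calls was particular to the mitosis genes was not tested.

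**Figure D1:**
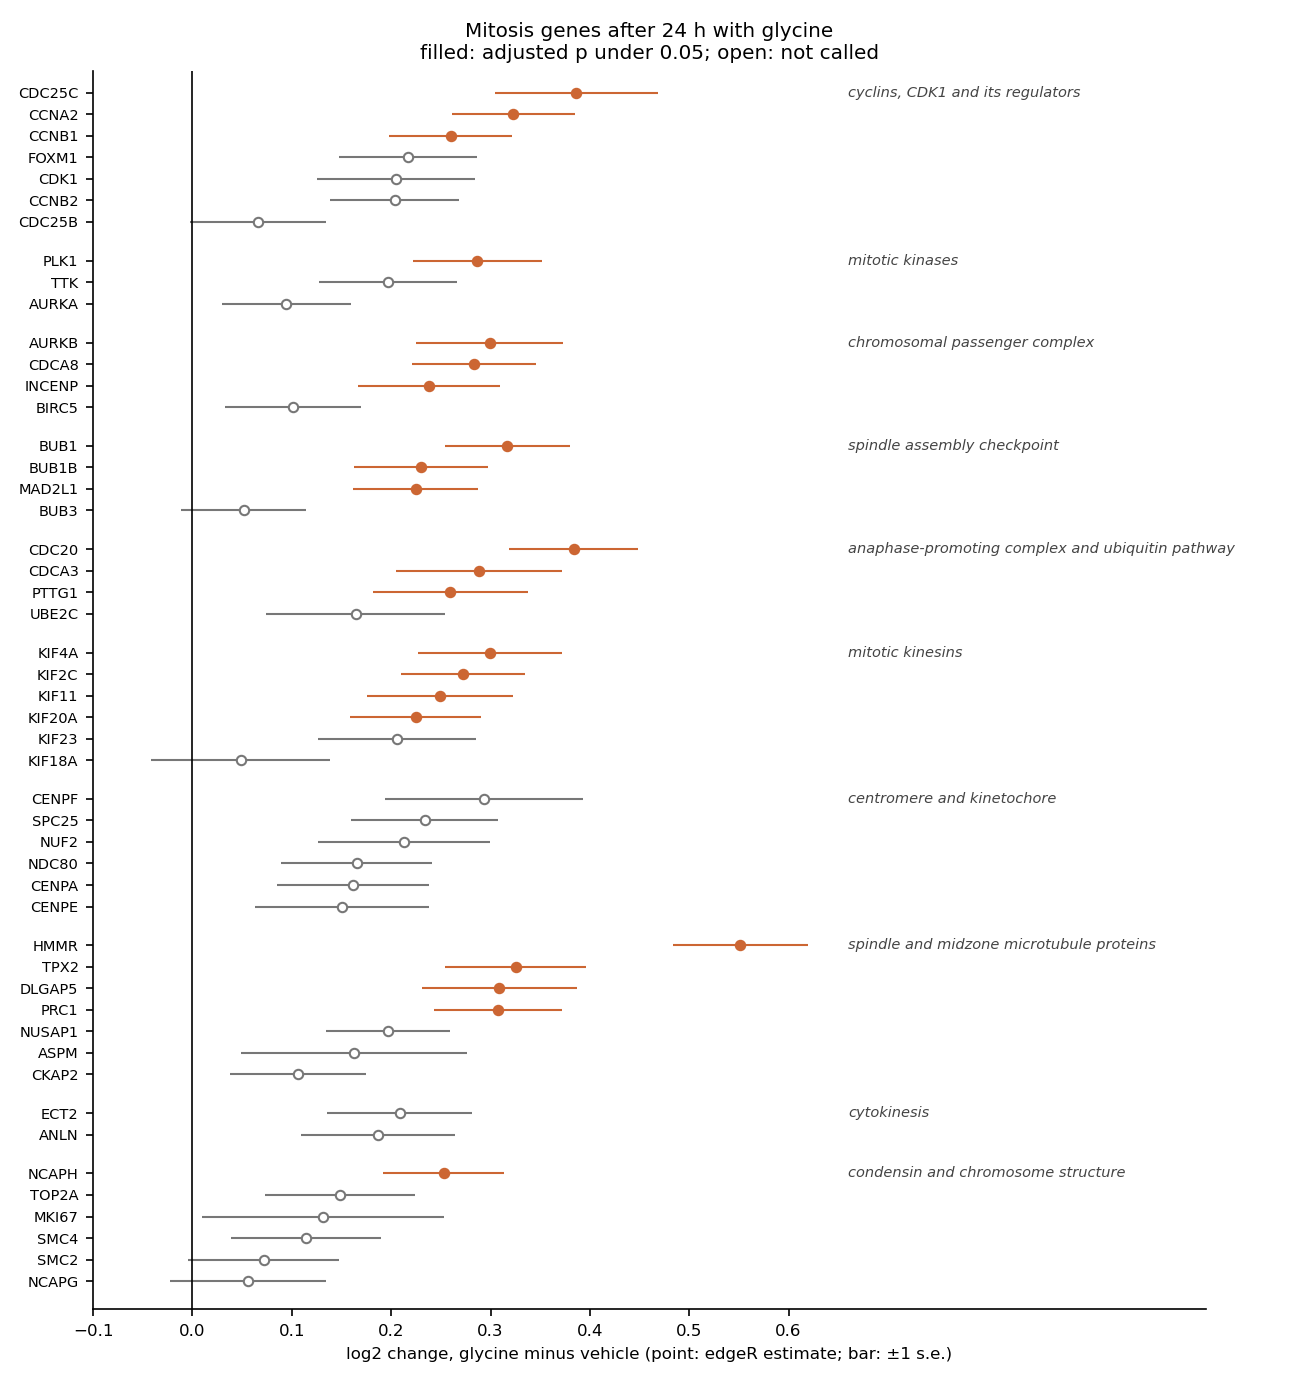
Each point is 1 of the 49 mitosis genes, grouped by role, and the horizontal axis is its log2 change (glycine minus vehicle, edgeR estimate with a bar of ±1 s.e., 3 libraries per group). Filled points are the 22 genes with an adjusted p under 0.05 and open points the other 27; all 49 points lie to the right of 0.

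The rise was visible in each glycine library taken alone. Levels are given as CPM, a count divided by the scaled size of its library in units of 1e6 counts. The 49 genes together took 3874, 3892 and 3672 CPM in vehicle replicates 1, 2 and 3, and 4571, 4384 and 4313 CPM in glycine replicates 1, 2 and 3. The summed level of every glycine library therefore exceeded that of every vehicle library. Set against the mean of the vehicle libraries, 48, 44 and 46 of the 49 genes were higher in glycine replicates 1, 2 and 3, and the median log2 difference was 0.25, 0.20 and 0.21. Each vehicle library set against the other vehicle libraries was higher for 30, 23 and 19 genes, with median log2 differences of 0.046, -0.020 and -0.019. Genes of 1 library are not independent replicates, so these and the earlier counts of genes do not add to the 3 libraries per group. Glycine replicate 1 was the highest library of its group for 25 of the 49 genes, and vehicle replicate 3 was the lowest of its group for 21.

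**Figure D2:**
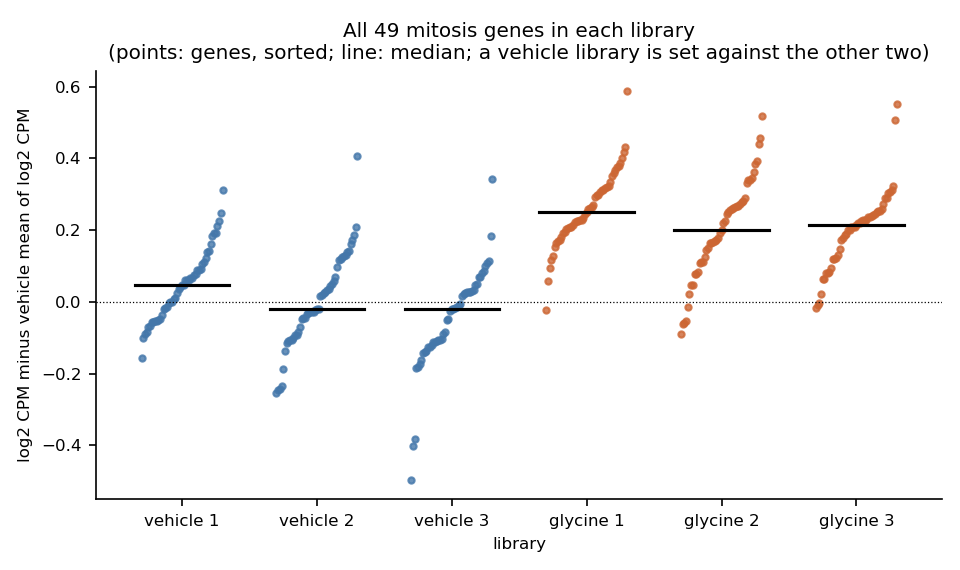
Each point is 1 of the 49 mitosis genes in 1 library, and the vertical axis is log2 CPM minus the vehicle mean of log2 CPM (a vehicle library is set against the other vehicle libraries). The black lines are medians, at 0.25, 0.20 and 0.21 in the glycine libraries and between -0.020 and 0.046 in the vehicle libraries.

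The libraries held between 31795489 and 58815986 counts, and the deepest, glycine replicate 2, was a glycine library. The lowest count of a mitosis gene in any library was 349, for KIF18A. HepG2 markers of the hepatocyte list were present, with ALB between 4682 and 9038 CPM. Of 12 such markers 2 were called lower (TTR, log2 -0.32, and APOA1, -0.26) and 0 higher. For calls in this and the other marker lists, the shares of all tested genes were 6.54% lower and 6.71% higher. By estimate 9 of the 12 were lower and 3 higher, with a median log2 change of -0.18. Every glycine library was below every vehicle library for 3 of the 12, against 14.4% of all tested genes. The summed level of the 12 markers was 31995 to 35973 CPM with vehicle and 28116 to 31626 with glycine. Of 6 fibroblast markers, COL1A2, COL3A1, DCN and LUM stayed at or under 0.188 CPM, while COL1A1 was called higher and PDGFRB lower, and the list summed to 27.1 to 31.1 CPM with vehicle and 21.5 to 22.1 with glycine. Of 5 endothelial markers, KDR and TEK were at 0 in 5 of 6 libraries each and VWF was called lower, with a sum of 5.45 to 5.79 CPM against 4.60 to 5.26. Of 6 immune markers, CD3E was at 0 in all libraries, CD14 was called higher and LYZ lower, and the list summed to 2127 to 2329.7 CPM against 1697 to 1856, nearly all of it LYZ. The part of these markers in the rise of the mitosis genes was not tested.

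The promoters of the mitosis genes are shown because late cell cycle genes share short promoter elements, and because the estimated change had 1 sign in all 49 genes. RefSeq promoters in GRCh38.p14, reaching from 250 bases before to 50 bases after a start site, were matched by symbol for 42 of the 49 genes, as 54 promoters. AURKA, BIRC5, BUB3, FOXM1, TPX2, TTK and UBE2C were not matched. The letters searched, on both strands, were TTTGAA or TTCGAA for the cell cycle genes homology region (CHR), which MuvB binds, CCAAT for the CCAAT box, which NF-Y binds, and TTTCCCGC, TTTGGCGC or TTTCGCGC for an E2F site. The CHR and CCAAT matches can overlap in a base, as they do in CDCA8. Among all promoters of the table, 16.4% held a CHR, 34.6% a CCAAT box and 2.74% an E2F site. By gene, 33 of the 42 matched mitosis genes (78.6%) held a CHR, against 15.5% of 11023 tested genes with a promoter. A CCAAT box stood in 32 of the 42 (76.2%, against 42.8%), both elements in 26 (61.9%, against 6.51%), and an E2F site in 3 (7.14%, against 5.42%). The CHR lay between 60 bases before and 50 bases after the start in 29 of the 42 genes (69.0%), against 5.24% of tested genes.

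The 200 bases before the RefSeq start are shown for the 8 called genes with the smallest p whose promoter held a match, with the CHR and CCAAT matches in capitals, read 5′ to 3′ on the strand of the gene. For CDC25C, which has 4 listed starts, the start with both elements upstream is shown. The gene spans of the count files reach further upstream than these RefSeq starts. The bases shown lie wholly inside these spans for HMMR, PRC1, CDC25C and PLK1, and partly for CDC20, CCNA2, BUB1 and CDCA8.
HMMR, chr5:163460432-163460631, + strand: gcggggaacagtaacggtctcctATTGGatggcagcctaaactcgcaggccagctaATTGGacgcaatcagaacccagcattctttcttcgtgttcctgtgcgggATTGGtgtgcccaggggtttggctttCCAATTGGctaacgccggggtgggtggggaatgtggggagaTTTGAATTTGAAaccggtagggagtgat
CDC20, chr1:43358781-43358980, + strand: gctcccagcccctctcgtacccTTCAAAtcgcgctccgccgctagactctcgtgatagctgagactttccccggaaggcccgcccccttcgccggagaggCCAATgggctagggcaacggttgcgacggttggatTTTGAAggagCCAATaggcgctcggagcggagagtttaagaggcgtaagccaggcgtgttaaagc
CCNA2, chr4:121823884-121824083, - strand: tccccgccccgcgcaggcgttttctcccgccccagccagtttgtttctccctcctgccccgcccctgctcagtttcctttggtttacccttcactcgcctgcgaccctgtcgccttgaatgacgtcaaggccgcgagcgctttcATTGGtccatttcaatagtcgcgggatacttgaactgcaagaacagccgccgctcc
BUB1, chr2:110678064-110678263, - strand: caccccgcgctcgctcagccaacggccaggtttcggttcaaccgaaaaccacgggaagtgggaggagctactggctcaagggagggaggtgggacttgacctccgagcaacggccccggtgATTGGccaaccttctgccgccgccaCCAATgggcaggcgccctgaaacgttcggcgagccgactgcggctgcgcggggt
PRC1, chr15:90994536-90994735, - strand: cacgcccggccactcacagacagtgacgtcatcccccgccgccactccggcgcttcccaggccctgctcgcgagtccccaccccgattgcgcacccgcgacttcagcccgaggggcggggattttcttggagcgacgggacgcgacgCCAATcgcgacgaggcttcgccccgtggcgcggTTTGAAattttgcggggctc
CDC25C, chr5:138331805-138332004, - strand: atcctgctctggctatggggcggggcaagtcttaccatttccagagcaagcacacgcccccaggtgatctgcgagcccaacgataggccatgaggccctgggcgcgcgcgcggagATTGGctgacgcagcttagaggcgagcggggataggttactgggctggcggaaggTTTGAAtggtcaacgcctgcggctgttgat
CDCA8, chr1:37692316-37692515, + strand: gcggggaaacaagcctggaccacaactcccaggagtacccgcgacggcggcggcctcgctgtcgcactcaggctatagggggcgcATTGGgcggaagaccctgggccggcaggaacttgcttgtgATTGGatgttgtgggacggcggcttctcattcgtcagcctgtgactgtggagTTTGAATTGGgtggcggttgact
PLK1, chr16:23678689-23678888, + strand: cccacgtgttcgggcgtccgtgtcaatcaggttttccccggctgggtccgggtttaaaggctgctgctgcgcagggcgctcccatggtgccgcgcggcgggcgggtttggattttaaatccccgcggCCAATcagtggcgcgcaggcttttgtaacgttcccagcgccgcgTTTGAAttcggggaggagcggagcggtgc
HMMR, PRC1, CDCA8 and PLK1 carry a CHR just before the start and a CCAAT box further upstream. HMMR has 2 CHR matches side by side and 5 CCAAT matches, a pair of which overlap. The CHR of BUB1 lies just after its start, outside the bases shown, and CCNA2 holds a CCAAT box without these CHR letters in the window. A match is a description of the letters and not a measured site.

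The promoter elements were counted among called and uncalled genes. A CHR match, by the letters searched, stood in 14 of 21 called and in 19 of 21 uncalled mitosis genes with a promoter. A CCAAT box stood in 19 of 21 called and 13 of 21 uncalled. The median log2 change was 0.21 for the 33 genes with a CHR match, of which 14 were called. It was 0.26 for the 9 without these letters, of which 7 were called. Other letters were not searched, so a gene without a match is not shown to lack a CHR. Outside the mitosis genes and the other lists used here, 659 tested genes held both a CHR and a CCAAT box. Of these 46 were called higher (6.98%, against 6.66% of genes without both), with a median log2 change of -0.0023.

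The cyclins, CDK1 and its regulators control entry into mitosis, and 3 of 7 were called higher: CDC25C, CCNA2 and CCNB1. For the calls of this and each later role or list, the share of all tested genes was 6.71% higher and 6.54% lower. The share with every glycine library above every vehicle library was 17.2%. CCNA2 (ENSG00000145386, chromosome 4, 121816444 to 121823933), cyclin A2, the partner of CDK2 and CDK1 from S phase to early mitosis, was at 99.2, 99.6 and 93.4 CPM with vehicle and 127, 117 and 122 CPM with glycine. All glycine libraries lay above all vehicle libraries, with a gap of 17.7 CPM between the groups and a log2 change of 0.32 ± 0.062 (the error is the s.e., adjusted p by edgeR = 0.00396). CCNB1, cyclin B1, the main activator of CDK1, was at 116, 121 and 121 CPM with vehicle and 139.6, 151 and 138 CPM with glycine. The vehicle libraries were close together and glycine replicate 2 was the highest, with a log2 change of 0.26 ± 0.062 (adjusted p by edgeR = 0.0145). CDC25C (ENSG00000158402, chromosome 5, 138285265 to 138338355), a phosphatase that activates CDK1, was low, at 12.8, 12.8 and 13.2 CPM with vehicle and 16.0, 16.3 and 18.4 CPM with glycine. It was again separated between the groups and had one of the larger changes, 0.39 ± 0.082 (adjusted p by edgeR = 0.00768). The call of CCNB1 was lost without vehicle replicate 1 (adjusted p = 0.0710), glycine replicate 1 (0.0532) or glycine replicate 2 (0.0680), and that of CDC25C without glycine replicate 3 (0.0506).

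CDK1 itself was not called. Its levels were 45.1, 37.4 and 43.5 CPM with vehicle and 50.3, 45.2 and 49.8 CPM with glycine. The lowest glycine library was only just above the highest vehicle library, and vehicle replicate 2 was low, so that the log2 estimate was 0.21 ± 0.079 (adjusted p by edgeR = 0.111). FOXM1, the transcription factor of late cell cycle genes, was at 118, 134 and 117 CPM with vehicle and 150.1, 140.1 and 138 CPM with glycine. Its groups did not overlap and its estimate of 0.22 ± 0.069 just missed the threshold (adjusted p by edgeR = 0.0558). Among the fits that left out 1 library, FOXM1 was called only without vehicle replicate 2 (adjusted p by edgeR = 0.0173), and the others gave up to 0.251. ITFG2 covers 15.9% of the exon length of FOXM1, and the strand setting of the counting is not given, so reads there could belong to either gene. CCNB2, cyclin B2, had a log2 estimate of 0.20 (adjusted p by edgeR = 0.0547) and no overlap between groups. CDC25B, another phosphatase of CDK1, had 0.066 (adjusted p by edgeR = 0.583) with overlapping groups.

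Among the mitotic kinases, PLK1 was called higher and AURKA and TTK were not. PLK1 (ENSG00000166851, chromosome 16, 23677656 to 23690367), Polo-like kinase 1, which acts from mitotic entry to cytokinesis, was abundant, at 272, 274 and 289.8 CPM with vehicle and 345, 352 and 322 CPM with glycine. Every glycine library was above every vehicle library, with a log2 change of 0.29 ± 0.065 (adjusted p by edgeR = 0.0112). Other genes cover 12.9% of its exon length, and its call was lost without vehicle replicate 1 (adjusted p = 0.0553) or glycine replicate 1 (0.0689). AURKA, Aurora A, the kinase of centrosomes and spindle poles, was at 164, 165 and 163 CPM with vehicle and 179, 184 and 162 CPM with glycine. The vehicle libraries were almost level and glycine replicate 3 fell just below all of them, so the groups overlapped, with a log2 estimate of 0.095 ± 0.065 (adjusted p by edgeR = 0.381). TTK, also known as MPS1, the kinase that starts checkpoint signalling, had an estimate of 0.20 (adjusted p by edgeR = 0.0818) without overlap.

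**Figure D3:**
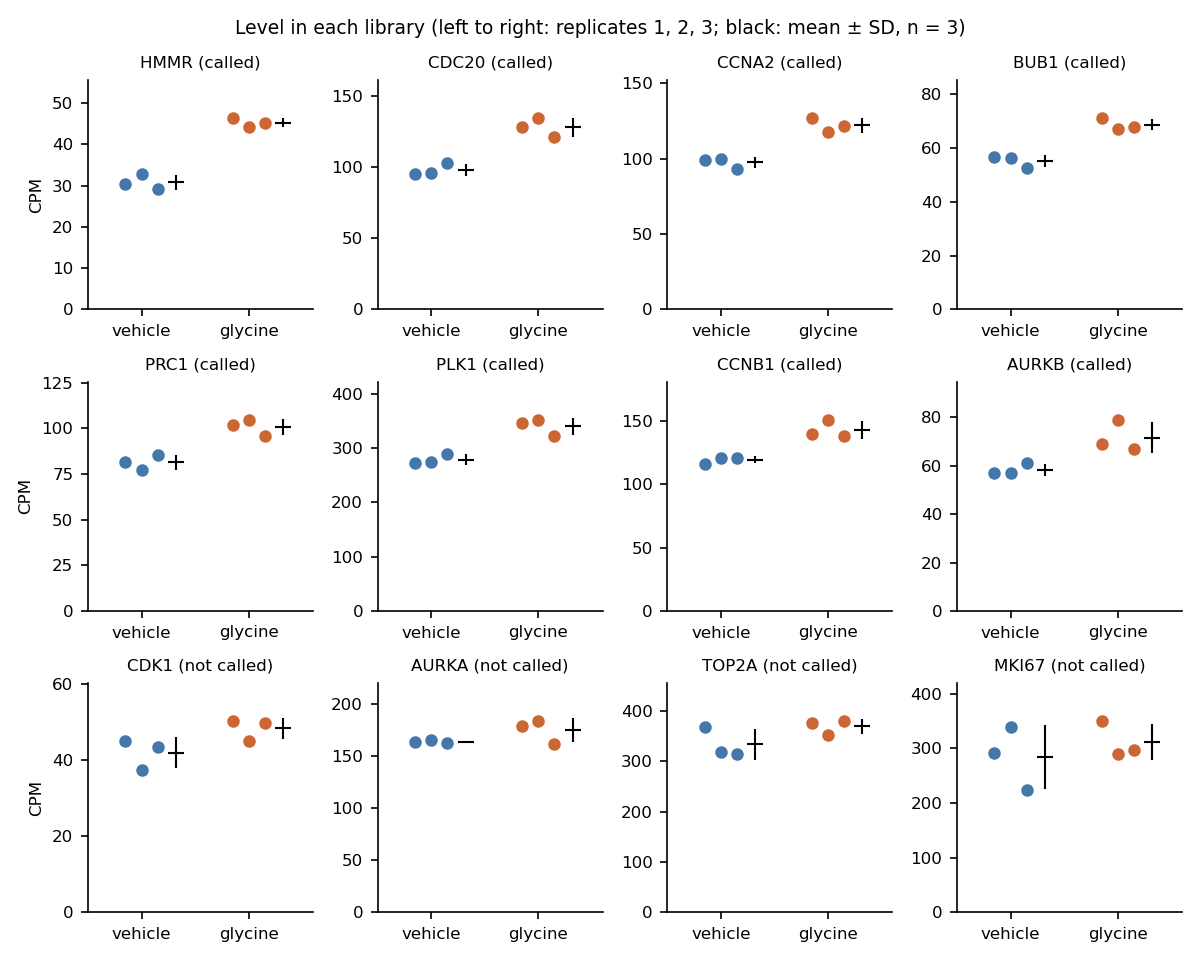
CPM of 12 mitosis genes in each library (vertical axis from 0; blue, vehicle; orange, glycine; replicates 1 to 3 from left to right within a group; black, mean ± SD, n = 3). The 8 called genes have all glycine points above all vehicle points, and MKI67 has the widest vehicle spread, from 223 to 339 CPM.

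The chromosomal passenger complex corrects faulty attachments of chromosomes to the spindle, and 3 of its 4 subunits were called higher. AURKB, Aurora B, its kinase, was at 56.8, 57.0 and 61.0 CPM with vehicle and 69.0, 79.0 and 66.9 CPM with glycine. The groups were separated and glycine replicate 2 was the highest, with a log2 change of 0.30 ± 0.074 (adjusted p by edgeR = 0.0171). CDCA8 (ENSG00000134690, chromosome 1, 37692418 to 37709719), borealin, was at 41.6, 38.6 and 40.9 CPM with vehicle and 49.6, 48.5 and 49.3 CPM with glycine. The glycine libraries were close together and above all vehicle libraries, and the log2 change was 0.28 ± 0.062 (adjusted p by edgeR = 0.00951). INCENP, the scaffold of the complex, rose from 61.6 ± 3.58 CPM with vehicle to 72.7 ± 5.26 CPM with glycine (SD, n = 3), which is 0.24 on the log2 scale (adjusted p by edgeR = 0.0441). BIRC5, survivin, had a log2 estimate of 0.10 (adjusted p by edgeR = 0.375) with overlapping groups. Leaving out 1 library ended the call of INCENP in 5 of 6 cases (adjusted p up to 0.239, without glycine replicate 1; called without glycine replicate 2), of AURKB without vehicle replicate 1 (0.0752) or glycine replicate 2 (0.0792), and of CDCA8 without glycine replicate 1 (0.0543).

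Of the 4 genes of the spindle assembly checkpoint, which delays anaphase while kinetochores are unattached, 3 were called higher. BUB1 (ENSG00000169679, chromosome 2, 110637698 to 110678114), a kinase of the kinetochore, was at 56.5, 56.1 and 52.3 CPM with vehicle and 70.9, 66.8 and 67.8 CPM with glycine. The gap between the groups was larger than the range within either, and the log2 change was 0.32 ± 0.063 (adjusted p by edgeR = 0.00529). MAD2L1, which encodes MAD2, the checkpoint protein that binds CDC20, was at 48.7, 44.8 and 47.6 CPM with vehicle and 54.1, 55.9 and 54.7 CPM with glycine. BUB1B, which encodes BUBR1 of the mitotic checkpoint complex, was at 47.4, 43.8 and 42.2 CPM with vehicle and 52.9, 49.9 and 53.7 CPM with glycine. In both genes the groups did not overlap, and the log2 changes were 0.22 and 0.23 (adjusted p by edgeR = 0.0321 and 0.0401). BUB3, which holds BUB1 and BUBR1 at kinetochores, was at 138, 129 and 135 CPM with vehicle and 132, 144 and 139.8 CPM with glycine. Here the groups overlapped and glycine replicate 1 was below the highest vehicle library, with a log2 estimate of 0.051 ± 0.063 (adjusted p by edgeR = 0.648). The calls of MAD2L1 and BUB1B were lost in 5 of the 6 fits that left out 1 library: MAD2L1 stayed called without vehicle replicate 3 and BUB1B without vehicle replicate 1, with adjusted p up to 0.106 (without glycine replicate 1) and 0.156 (without glycine replicate 3). The read-through transcript BUB1B-PAK6 shares 10.2% of the exon length of BUB1B.

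The regulators of the anaphase-promoting complex and the ubiquitin pathway had 3 of 4 genes called higher. CDC20 (ENSG00000117399, chromosome 1, 43358955 to 43363203), the mitotic activator of the complex, was at 94.9, 96.0 and 103 CPM with vehicle and 128, 134 and 121 CPM with glycine. The highest vehicle library was 17.9 CPM below the lowest glycine library, and the log2 change of 0.38 ± 0.065 (adjusted p by edgeR = 0.00176) was called in all 16 alternative fits. CDCA3, an F-box-like protein linked to turnover of the CDK1 inhibitor WEE1, was at 23.8, 20.7 and 25.2 CPM with vehicle and 27.2, 30.2 and 27.6 CPM with glycine. The groups were apart by 2.02 CPM, less than the range within either, with a log2 change of 0.29 ± 0.083 (adjusted p by edgeR = 0.0373). PTTG1, securin, the inhibitor of separase, rose from 33.3 ± 0.333 CPM with vehicle to 39.8 ± 4.11 CPM with glycine (SD, n = 3), which is 0.26 on the log2 scale (adjusted p by edgeR = 0.0435). UBE2C, the ubiquitin-conjugating enzyme of the complex, had an estimate of 0.16 (adjusted p by edgeR = 0.264). Its vehicle replicate 3, at 48.9 CPM, was above every glycine library. Among the fits that left out 1 library, UBE2C was called only without that library (adjusted p by edgeR = 0.0199). The other such fits gave it a log2 estimate down to 0.083 and an adjusted p by edgeR up to 0.591. CDCA3 stayed called only without vehicle replicate 3 and PTTG1 only without glycine replicate 3 among the fits that left out 1 library, with adjusted p up to 0.138 and 0.183 (both without glycine replicate 2). By limma-voom PTTG1 was not called (adjusted p = 0.0520).

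The mitotic kinesins, motors that move along or take apart spindle microtubules, had 4 of 6 genes called higher. KIF2C, also known as MCAK, a depolymerase of centromeric microtubules, was at 55.1, 53.4 and 57.0 CPM with vehicle and 69.5, 65.9 and 64.6 CPM with glycine. KIF4A, a chromokinesin of chromosome arms and the midzone, was at 52.6, 54.8 and 48.0 CPM with vehicle and 68.3, 62.5 and 60.5 CPM with glycine. Both were separated between the groups, with log2 changes of 0.27 ± 0.063 and 0.30 ± 0.072 (adjusted p by edgeR = 0.0120 and 0.0153), and both calls were lost without glycine replicate 1 (adjusted p = 0.0874 and 0.101). KIF11, also known as EG5, which pushes the spindle poles apart, was at 71.0, 68.9 and 61.7 CPM with vehicle and 86.1, 75.6 and 78.1 CPM with glycine. KIF20A, also known as MKLP2, which carries the passenger complex to the midzone, was at 51.1, 46.5 and 49.6 CPM with vehicle and 55.3, 60.0 and 56.7 CPM with glycine. These last genes rose by less, 0.25 and 0.22 on the log2 scale, and sat just inside the threshold (adjusted p by edgeR = 0.0402 and 0.0391). Leaving out 1 library ended the call of KIF20A in 6 of 6 cases, with adjusted p up to 0.139 (without glycine replicate 2), and that of KIF11 in 5 of 6, up to 0.215 (without glycine replicate 1). KIF23, also known as MKLP1, the motor of centralspindlin, had an estimate of 0.21 (adjusted p by edgeR = 0.111). KIF18A, which limits chromosome oscillation in metaphase, was the lowest of the 49 genes in both level and change, at 9.96, 10.3 and 10.3 CPM with vehicle and 11.1, 9.60 and 11.1 CPM with glycine. Its glycine replicate 2 was below every vehicle library, and the log2 estimate was 0.049 ± 0.090 (adjusted p by edgeR = 0.778).

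In 5 of the 6 centromere and kinetochore genes, which tie chromosomes to the spindle, every glycine library was above every vehicle library. None of the 6 was called by edgeR, and 4 were higher at an unadjusted p under 0.05. Of all tested genes, 17.2% had every glycine library above every vehicle library and 14.3% were higher at an unadjusted p under 0.05. By limma-voom 0 of the 6 kinetochore genes were called, and by DESeq2 1, CENPF. CENPF, a large kinetochore protein, had the highest estimate, from 107 ± 16.3 CPM with vehicle to 131 ± 10.9 CPM with glycine (SD, n = 3), with a log2 value of 0.29 ± 0.099 (adjusted p by edgeR = 0.0702). Its vehicle replicate 3, at 87.8 CPM, was well below vehicle replicates 1 and 2, at 115.5 and 116.4 CPM. Among the fits that left out 1 library, CENPF was called only without vehicle replicate 2 (adjusted p by edgeR = 0.0422). The other such fits gave it a log2 estimate down to 0.17 and an adjusted p by edgeR up to 0.245. SPC25, NUF2 and NDC80 belong to the NDC80 complex, which grips microtubules, and their log2 estimates were 0.23, 0.21 and 0.17 (adjusted p by edgeR = 0.0539, 0.127 and 0.178). CENPA, the histone H3 variant of centromeres, had 0.16 (adjusted p by edgeR = 0.193). CENPE, a kinetochore motor and the gene whose groups overlapped, had 0.15 (adjusted p by edgeR = 0.299).

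Spindle and midzone microtubule proteins held the largest change of the 49 genes and 4 of 7 calls. HMMR (ENSG00000072571, chromosome 5, 163460203 to 163491945), a spindle pole protein first described as a hyaluronan receptor, was at 30.3, 32.9 and 29.3 CPM with vehicle and 46.4, 44.1 and 45.2 CPM with glycine. The lowest glycine library exceeded the highest vehicle library by 11.2 CPM, and the log2 change was 0.55 ± 0.068, or 1.47-fold (adjusted p by edgeR = 0.000137). It was called in all 16 alternatives, and HMMR-AS1 shares 2.87% of its exon length. TPX2, the spindle activator of Aurora A, was at 287, 317 and 276 CPM with vehicle and 380.3, 372 and 351 CPM with glycine. PRC1 (ENSG00000198901, chromosome 15, 90966038 to 90995629), the bundler of antiparallel microtubules in the midzone, was at 81.3, 77.4 and 85.5 CPM with vehicle and 102, 105 and 95.8 CPM with glycine. DLGAP5, also known as HURP, which stabilizes kinetochore fibres, was at 33.4, 34.9 and 30.0 CPM with vehicle and 44.2, 39.2 and 38.6 CPM with glycine. In these genes too the groups were apart, and the log2 changes were 0.33 ± 0.071, 0.31 ± 0.065 and 0.31 ± 0.078 (adjusted p by edgeR = 0.00891, 0.00732 and 0.0196). PRC1 was called in all 16 alternatives, whereas TPX2 was lost without glycine replicate 1 (adjusted p = 0.0574) and DLGAP5 when glycine replicate 1 or vehicle replicates 1 or 3 were left out (0.115, 0.0523 and 0.0591). NUSAP1, a microtubule-bundling protein, had an estimate of 0.20 (adjusted p by edgeR = 0.0554) without overlap. ASPM, a spindle pole protein, and CKAP2, a microtubule-associated protein, had 0.16 and 0.11 (adjusted p by edgeR = 0.392 and 0.354) with overlap.

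The genes of cytokinesis, ECT2 and ANLN, were not called by edgeR, DESeq2 or limma-voom, although both were higher at an unadjusted p under 0.05. ECT2, the exchange factor that activates RhoA at the cleavage site, had a log2 estimate of 0.21 ± 0.073 (adjusted p by edgeR = 0.0788) without overlap between groups. Among the fits that left out 1 library, ECT2 was called only without glycine replicate 2 (adjusted p by edgeR = 0.0373), and the others gave up to 0.281. ANLN, anillin, a scaffold of the contractile ring, had 0.19 ± 0.077 (adjusted p by edgeR = 0.137) with overlap.

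Condensin and chromosome structure genes had 1 call of 6 and the lowest median log2 change of the roles, 0.12. NCAPH, the kleisin subunit of condensin I, was at 49.2, 46.9 and 47.5 CPM with vehicle and 56.0, 58.1 and 57.0 CPM with glycine. The groups were narrow and separated, with a log2 change of 0.25 ± 0.061 (adjusted p by edgeR = 0.0150), and the call was lost without any 1 of the glycine libraries (adjusted p between 0.0548 and 0.0646). Its condensin I partner NCAPG had a log2 estimate of 0.056, and SMC2 and SMC4, the ATPases of both condensins, had 0.071 and 0.11 (adjusted p by edgeR = 0.702, 0.595 and 0.363). LCORL covers 33.1% of the exon length of NCAPG, and IFT80 and TRIM59 cover 25.6% of that of SMC4. Without glycine replicate 1 the estimates of NCAPG and SMC2 were -0.032 and -0.00060. TOP2A, topoisomerase II alpha, which untangles sister DNA, was at 369, 318 and 314 CPM with vehicle and 377, 353 and 380.0 CPM with glycine. Vehicle replicate 1 lay within the glycine range, and the log2 estimate was 0.15 ± 0.075 (adjusted p by edgeR = 0.228). MKI67, which encodes Ki-67, the coat protein of mitotic chromosomes and a common marker of proliferation, was at 292, 339 and 223 CPM with vehicle and 349.8, 289.9 and 297 CPM with glycine. Vehicle replicate 2 was above glycine replicates 2 and 3, and the log2 estimate of 0.13 ± 0.12 (adjusted p by edgeR = 0.535) became -0.017 without vehicle replicate 3.

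Exon length per gene, which is not the length of 1 transcript, went with the spread. MKI67, the longest of the 49 genes at 12807 exon bases, had the largest coefficient of variation among vehicle libraries, 20.4%, while the median over the 49 genes was 5.0%. Of the 11 genes longer than 6000 exon bases 1 was called (BUB1, at 6032 bases), and of the 38 shorter genes 21. Across the 49 genes, Spearman's rho was 0.50 between exon length and the vehicle coefficient of variation and -0.30 between exon length and the log2 change; genes are not independent replicates, and both share the same 6 libraries. Vehicle replicate 3 and glycine replicate 2 were low for long genes in general: over 4983 tested genes longer than 6000 bases their median log2 difference from the group mean was -0.052 and -0.044. For the 11 long mitosis genes these medians were -0.084 and -0.11. With a correction for gene length, 26 of the 49 were called (53.1%), adding CCNB2, CENPF, ECT2 and FOXM1, and the share of all tested genes called higher was 7.77%, against 6.71% without it. The part of length in the uncalled results was not tested beyond this correction.

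Per exon length, the abundant mitosis RNAs were those of TPX2, PLK1, AURKA, CDC20, TOP2A and CCNB1. TPX2 led with an RPKM (CPM per kilobase of exon) of 81.4 with vehicle and 102 with glycine, and KIF18A was at the bottom with 2.19 and 2.27. PLK1 followed TPX2 at 58.5 and 71.4 RPKM, AURKA was at 56.0 and 59.8, and CDC20 at 48.1 and 62.8. CDC20 thus lay below AURKA with vehicle and above it with glycine in mean level per length. Across the 49 genes, Spearman's rho between level per length and log2 change was 0.14, given as a description. HMMR, with the largest log2 change, had 7.84 RPKM with vehicle, and CDC25C, with the next largest, had 4.24.

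**Figure D4:**
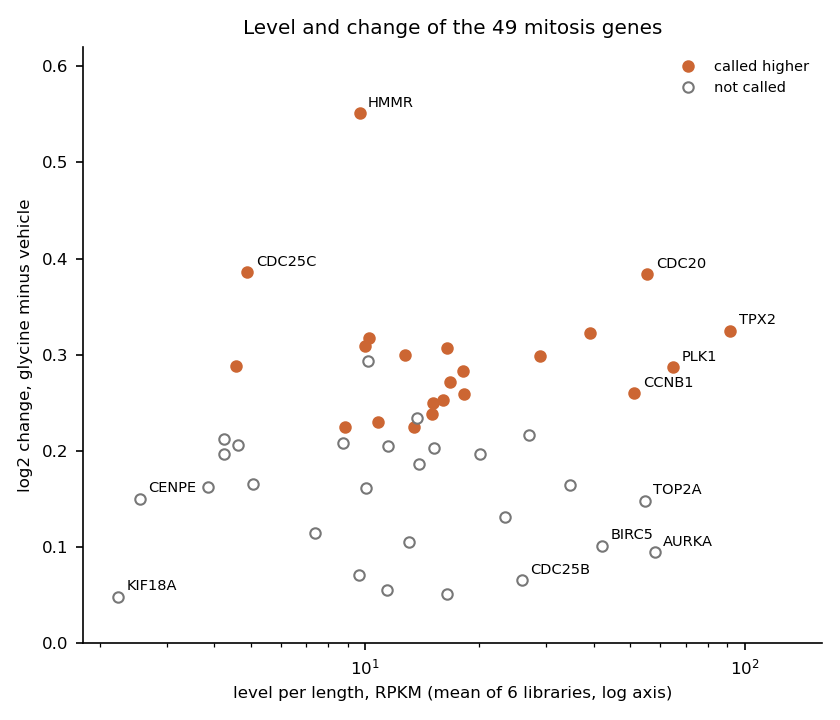
Mean level per exon length over the 6 libraries (RPKM, log axis) against the log2 change (glycine minus vehicle) for the 49 mitosis genes; filled points are called higher. Called genes run from CDCA3 at 4.56 RPKM to TPX2 at 91.7, and the 5 genes below CDCA3, down to KIF18A at 2.23, were not called.

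The other genes of the pathway were counted in 8 lists with 122 genes. All were tested, 97 had a log2 estimate above 0, and the median log2 change was 0.12. The edgeR test called 23 of them (18.9%), all higher, against 6.71% of all tested genes called higher. At an unadjusted p under 0.05 by edgeR, 45 were higher and 3 lower, against 14.3% and 13.0% of all tested genes. DESeq2 called 20 of the 122 genes and limma-voom 23, all higher. Other kinesins and spindle proteins had 9 of 21 genes called, led by KPNA2, an importin that binds TPX2 (log2 0.31), STMN1, a microtubule destabilizer (0.30), and CEP55, which acts in abscission (0.31). G2/M regulators had 5 of 16 called, among them CKS1B, a small CDK-binding protein (0.45), CCNF, cyclin F (0.31), and PKMYT1, an inhibitory kinase of CDK1 (0.29). Outer kinetochore and checkpoint genes had 4 of 17, among them TRIP13, which remodels MAD2 (0.42), ZWINT (0.28) and SKA3 (0.31). Inner kinetochore and CENP-A loading genes had 3 of 18 called, CENPH (0.39), CENPT (0.26) and CENPM (0.27), although 0 of the 6 kinetochore genes above were. These list counts are those of edgeR. By DESeq2, 8 of the 21 other kinesins and spindle proteins and 2 of the 18 inner kinetochore genes were called.

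The remaining mitosis lists had few calls. None of 17 subunits and partners of the anaphase-promoting complex was called (edgeR; median log2 0.083, 3 at an unadjusted p under 0.05, all higher, and 0 called by DESeq2 or limma-voom). None of 13 MuvB, B-MYB and E2F regulators, which control transcription in the cell cycle, was called (edgeR; median log2 0.020; at an unadjusted p under 0.05, 1 higher and 1 lower; and 0 called by DESeq2 or limma-voom). Of 16 cohesin and separase genes 1 was called, ESCO2, an acetyltransferase of cohesin (log2 0.30, adjusted p by edgeR = 0.0477), and of 4 other condensin subunits NCAPD2 (0.22). By DESeq2 ESCO2 was not called (adjusted p = 0.0542) and 0 of the 16 cohesin and separase genes were (at an unadjusted p under 0.05, 2 higher and 2 lower), and edgeR lost it with upper-quartile or total count scaling (adjusted p = 0.0537 and 0.0532). Leaving out 1 library ended the edgeR call of ESCO2 in 5 of 6 cases, with adjusted p up to 0.161 (without glycine replicate 3). Differences between these lists were not tested.

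DNA replication and nucleotide supply, the nearest other stage of the cell cycle, also held calls. The list has 39 genes, 36 of them with an estimate above 0, and its median log2 change was 0.16. Of the 39 genes 13 (33.3%) were called, all higher, against 6.71% of all tested genes called higher. The smallest p-values belonged to RRM2 (log2 0.42) and RRM1 (0.37), the subunits of ribonucleotide reductase, and to MCM7 (0.38), a helicase subunit. Their promoters differed from those of the mitosis genes in these letters: 2 of 34 held a CHR and 18 of 34 (52.9%) an E2F site. The difference in change between the mitosis and replication lists was not tested. The counts again depended on single libraries: without glycine replicate 1, 6 replication genes and 9 of the 122 other mitosis genes were called higher. In that fit the share of all tested genes called higher was also smaller, 3.76% against 6.71% with all libraries.

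**Figure D5:**
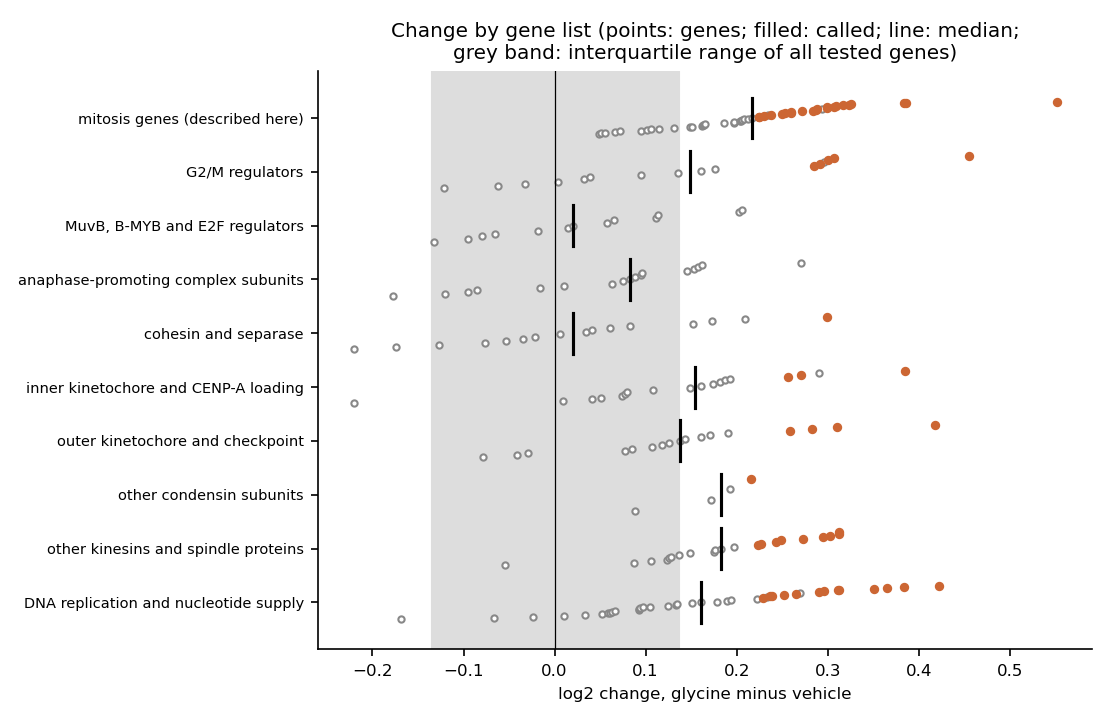
Log2 change (glycine minus vehicle, horizontal axis) of each tested gene by list; filled points were called higher and black lines are list medians. The grey band is the interquartile range of all 15492 tested genes, from -0.13 to 0.14; the median of the 49 mitosis genes, 0.22, lies to its right.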

How the data were processed

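RNA of HepG2 cells was sequenced in 6 libraries. The deposited files hold raw counts of reads per gene, which the authors did not normalize, for 57500 genes in each of the 6 files. The submitters' processing notes name Trimmomatic 0.36, STAR 2.5.2b, featureCounts of Subread 1.5.2 and GRCh38. The strand setting and the annotation release are not given in the sources used here, so reads in overlapping genes could be split either way. Exon length was taken from the deposited length column of the same files. Libraries were grouped by their labels.

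Counts were tested with the edgeR 4.0.16 quasi-likelihood test in R 4.3.3 (two-sided, group only), after its default filter (minimum count 10, minimum total 15) and scaling by the trimmed mean of M values, and p-values were adjusted over 15492 genes with a threshold of 0.05. CPM and RPKM used the scaled library sizes, length differences used log2(CPM + 0.05), and differences between libraries used log2 CPM with a prior count of 2. Replicates differed by a chi-square of 7.61 to 29.6 per degree of freedom, so none was counted as a duplicate. Standard errors were derived from each gene's log2 change and F statistic (change / root of F). Alternatives were other scalings, other filters, DESeq2 1.42.0, limma 3.58.1 with voom, a loess correction for gene length (with a span of 0.5), leaving out each library, and a replicate block. The scripts were tested on simulated counts. Motifs were counted in RefSeq promoters of GRCh38.p14.

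All 49 genes are named. Values in every library are given for the 20 called genes with the smallest p, for the highest and lowest change, and for CDK1, CCNB1, PLK1, AURKA, AURKB, CDC20, TOP2A, MKI67, FOXM1 and BUB3. Other lists are represented by at most 3 called genes with the smallest p. The 49 genes and all lists were chosen with earlier results of these data known.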

Additional observations from a re-analysis of the deposited data

How the results depend on the processing

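The rise of the 49 mitosis genes kept its direction, and its count of calls depended on the libraries. Under other scalings, other filters, DESeq2, limma-voom and the gene length correction, between 21 and 26 of the 49 genes were called higher (42.9% to 53.1%), against 3.93% to 7.77% of all genes tested in the same fits; limma-voom lost PTTG1. Leaving out 1 library, which also leaves an arm of 2 that is assumed to vary like the other, gave between 7 and 17 called genes (14.3% to 34.7%, against 3.73% to 5.85% of all genes tested), with 15 of 22 calls lost without glycine replicate 1. No alternative called a mitosis gene lower, and the median log2 change stayed between 0.19 and 0.24. HMMR, CDC20, CCNA2, BUB1 and PRC1 were called in all 16 alternatives, and 19 genes in none. Log2 estimates changed sign for MKI67 without vehicle replicate 3 (-0.017) and for SMC2 (-0.00060) and NCAPG (-0.032) without glycine replicate 1, while leaving out another library gave up to 0.28, 0.14 and 0.11; the cause was not tested.

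Without 1 library, the other mitosis lists had between 9 and 17 genes called higher and between 0 and 1 lower (PDS5B, without vehicle replicate 3, named after its values were seen), the replication list between 6 and 14 higher, and all tested genes between 587 and 926 higher and between 655 and 1010 lower. The replicate numbers did not pair the samples: deviations of libraries with the same number correlated at -0.058, -0.027 and -0.0026, and other pairs between -0.20 and 0.21. Positive values were those of vehicle replicate 1 with glycine replicate 3 (0.21), vehicle 2 with glycine 1 (0.21) and vehicle 3 with glycine 2 (0.18). All other pairs were below 0, and a pairing in that order was not tested. With the replicate number as a block, 19 of the 49 mitosis genes were called (5.59% of all tested genes were called higher), losing BUB1B, KIF20A, MAD2L1 and PTTG1 and gaining CENPF, and with the block and the length correction together 26 were called (7.58% of all).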
